A study of Homo sapiens with 12 samples.

Results

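The ZBTB family is a group of transcription factors that carry a BTB domain at one end and C2H2 zinc fingers at the other. Its members were taken as the rows whose symbol is ZBTB, a number and at most 1 letter: 42 of the 20323 genes in the table, with 41 different symbols. The low-count filter passed 38 of them. In these proteins the BTB domain pairs one molecule with another and docks corepressor complexes with their histone deacetylases, and the zinc fingers choose the DNA site. Most studied members repress transcription, and several control lymphocyte fate, bind methylated DNA or act on cell cycle and metabolic genes.

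The libraries were RNA sequencing libraries of cells labelled A549, a human lung adenocarcinoma line, in 4 groups of 3. LKB1-deficient cells, called con in the sample titles, received high-dose AA (called VitC, vitamin C, in the titles) or phosphate-buffered saline (PBS). So did WT cells, which the series design calls LKB1-intact. LKB1 is the kinase encoded by STK11. The parental line is known for carrying an inactive STK11 gene, and neither the way the genotypes were made nor the number of clones, the AA dose or the exposure time is given. The labels do not call the 3 libraries of a group separate cultures, so p-values reflect library-to-library spread only, and that spread may be technical.

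Library totals ran from 16055534 to 20306129 estimated counts, and 12718 genes were tested. STK11 measured 5.61, 7.34 and 6.97 CPM (library-scaled counts, with TMM factors) in deficient AA libraries and 5.94, 6.56 and 4.86 CPM in deficient PBS libraries. It measured 24.3, 28.2 and 25.6 CPM in WT AA libraries and 25.4, 24.6 and 23.6 CPM in WT PBS libraries, so that the genotypes did not overlap. The keratins KRT8, KRT18 and KRT7 were abundant, between 562 and 2015 CPM, and the alveolar type II genes SFTPC, SFTPB, SFTPA1 and NKX2-1 stayed under 1 CPM in every library. Some genes for which A549 is known did not follow the label. ALDH1A1, an aldehyde dehydrogenase abundant in A549, was at most 0.0613 CPM and the aldo-keto reductase gene AKR1B10 at most 2.43 CPM. CDKN2A, a tumour suppressor gene that A549 is widely described as having lost by deletion, averaged 110 ± 3.54 CPM in deficient AA, 66.7 ± 8.20 CPM in deficient PBS, 105 ± 8.37 CPM in WT AA and 67.6 ± 3.52 CPM in WT PBS libraries (SD, n = 3 each). Of 3 endothelial markers, PECAM1 and VWF stayed under 1 CPM, and the summed level of the 3, nearly all of it CDH5, moved with AA: 0.719 to 1.68 CPM in deficient AA, 6.56 to 9.22 CPM in deficient PBS, 3.21 to 4.29 CPM in WT AA and 9.19 to 10.7 CPM in WT PBS libraries. Of 4 immune markers, PTPRC, CD3E and LYZ stayed under 1 CPM and CD68 gave nearly all of a sum of 103 to 111 CPM in deficient AA, 83.3 to 90.9 CPM in deficient PBS, 107 to 110 CPM in WT AA and 85.4 to 93.7 CPM in WT PBS libraries. The part of these markers in the results was not tested. In bulk RNA, fewer cells expressing a gene and less of its RNA per cell cannot be told apart.

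Levels between members were compared per transcript length, in FPKM (fragments per transcript length, set to the depth of the library), under PBS. ZBTB38, a Kaiso-like protein that binds methylated CpG sites, was the most abundant member at 40.2 ± 1.25 FPKM in deficient PBS and 42.0 ± 1.45 FPKM in WT PBS libraries (SD, n = 3). ZBTB1, needed for lymphocyte development, followed at 22.1 ± 1.08 FPKM in deficient PBS and 22.2 ± 0.927 FPKM in WT PBS libraries. ZBTB33, which encodes Kaiso itself, stood next at 17.6 ± 0.223 FPKM in deficient PBS and 17.6 ± 0.788 FPKM in WT PBS libraries. ZBTB44 at 16.5 ± 1.60 FPKM in deficient PBS libraries did not differ from ZBTB33 beyond its spread. At the low end, ZBTB42 at 0.795 ± 0.131 FPKM and ZBTB10 at 0.743 ± 0.135 FPKM in deficient PBS libraries could not be put in order. ZBTB16, which encodes the myeloid and germ-cell factor PLZF, and ZBTB32 had 0 to 2 counts per library. ZBTB8B, present under 2 identifiers, had 0 counts in every library. A count of 0 allows up to 0.148 to 0.187 CPM per library, for counting error only. These 4 rows were not tested.

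The first comparison asked what AA did to these genes in each genotype. Most members fell. In deficient cells 24 of 38 members were lower under AA and 5 were higher (edgeR adjusted p under 0.05), while among all tested genes 37.4% were lower and 37% higher. The family thus had about the same share of calls in either direction as all genes, 29 of 38 against 74.4%, but placed most of them on the lower side. In WT cells 27 were lower and 5 higher, against 35.2% and 34.5% of all genes, and 32 of 38 were called against 69.8%. The median log2 change of the 38 members was -0.57 in deficient and -0.55 in WT cells, against 0.01 over all tested genes in both. The 392 tested ZNF genes, the wider zinc finger family, had similar medians, -0.62 and -0.58. The summed level of the tested members was 1009 ± 8.81 CPM in deficient AA and 1356 ± 28.7 CPM in deficient PBS libraries (SD, n = 3 each). In WT cells it was 1085 ± 60.7 CPM under AA and 1367 ± 13.7 CPM under PBS. The lowest PBS library, at 1333 CPM, lay above the highest AA library, at 1125 CPM.

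Large falls were frequent. A fall of at least 1 on the log2 scale was called in 12 members in deficient cells, against 7.75% of all genes, and in 9 members in WT cells, against 5.65%. A rise of that size was called in 1 member in deficient cells, ZBTB10, against 6.7% of all genes. All 3 AA libraries lay below all 3 PBS libraries for 24 members in deficient cells, against 37.8% of all genes, and for 25 in WT cells, against 36.4%. The opposite separation was found for 5 members in each genotype, against 37.7% of all genes in deficient and 36.3% in WT cells. The 2 AA comparisons use different libraries, and 24 members were lower in both, against 27% of all genes. Members higher in both were ZBTB10 and ZBTB48, and no member was called in opposite directions, against 5.91% of all genes. Across the 38 members the AA effects in deficient and WT cells correlated with a Pearson r of 0.904 and a Spearman rho of 0.934, against 0.745 and 0.734 over all tested genes. These are descriptions across genes, which are not independent replicates. ZBTB42, ZBTB21 and ZBTB7B, the last encoding the CD4 lineage factor ThPOK, were called in neither genotype.

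**Figure D1:**
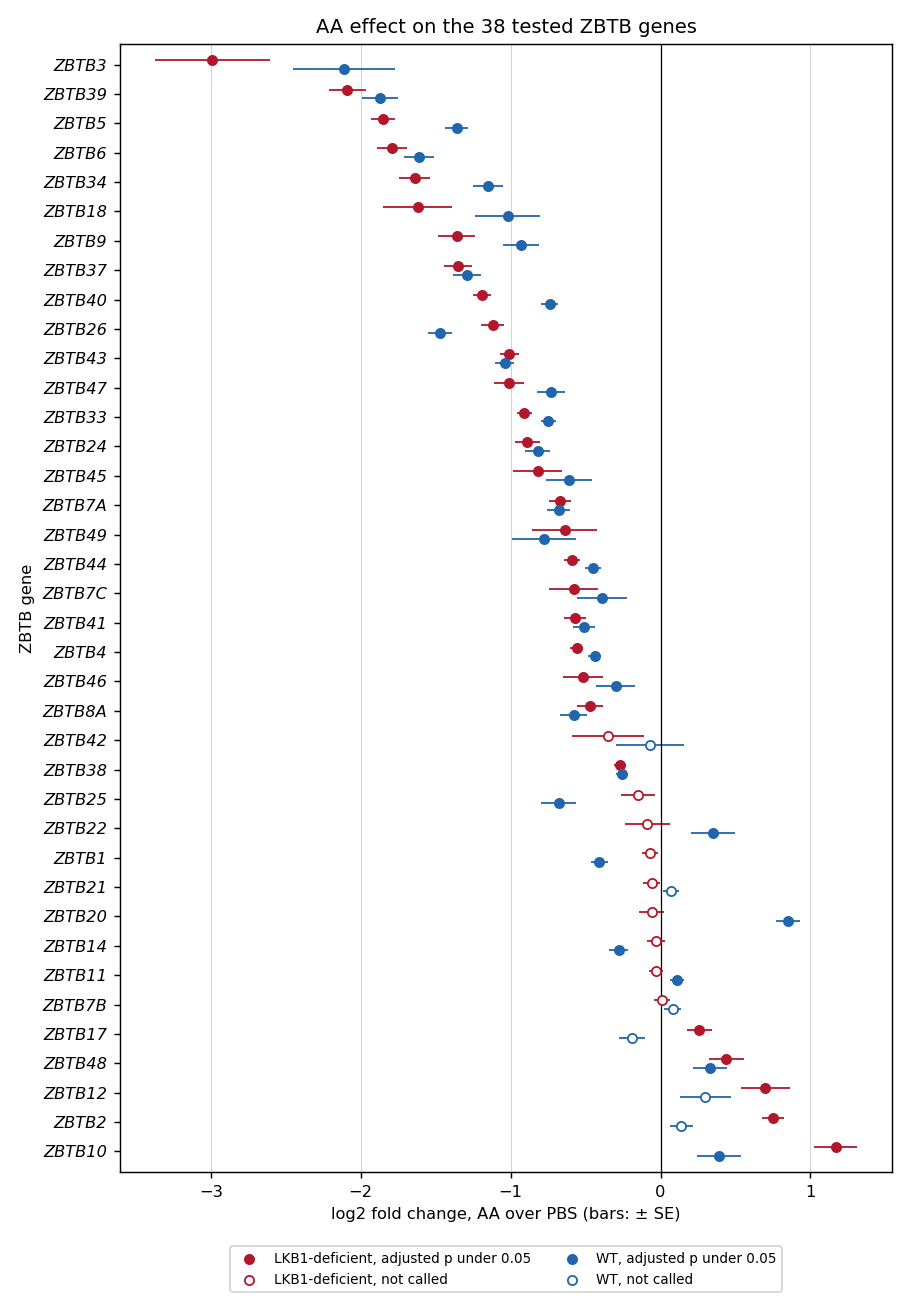
Log2 fold change of AA over PBS with its standard error for the 38 tested ZBTB genes, ordered by the value in LKB1-deficient cells (red) with WT cells (blue) beside it; filled points are called at an edgeR adjusted p under 0.05. Most points of both colours lie left of 0, from -2.99 for ZBTB3 to 1.17 for ZBTB10 in deficient cells.

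In deficient cells the deepest falls were of ZBTB3, ZBTB39, ZBTB5, ZBTB6 and ZBTB34. These 5 and ZBTB37 stood among the 8 largest called changes in both genotypes, and in WT cells ZBTB26 and ZBTB37 fell further than ZBTB34. ZBTB3 (chromosome 11, 62748319 to 62754188, minus strand) measured 0.144, 0.219 and 0.419 CPM in deficient AA libraries and 2.39, 2.06 and 1.84 CPM in deficient PBS libraries. ZBTB3 in WT cells measured 0.599, 0.556 and 0.414 CPM under AA and 2.39, 2.54 and 1.91 CPM under PBS. The AA and PBS libraries did not overlap in either genotype. ZBTB3 had a log2 change of -2.99 in deficient cells (SE 0.384, edgeR adjusted p = 3.97e-07) and -2.11 in WT cells (SE 0.339, adjusted p = 1.07e-05), on only 3 to 47 counts per library. ZBTB39 (chromosome 12, 56998834 to 57006446, minus strand) measured 3.64, 3.34 and 3.41 CPM in deficient AA libraries and 13.5, 14.2 and 16.6 CPM in deficient PBS libraries. ZBTB39 in WT cells measured 3.92, 3.84 and 4.66 CPM under AA and 14.7, 15.7 and 14.9 CPM under PBS. Its AA libraries of both genotypes lay together, well under all 6 PBS libraries, and the log2 changes were -2.09 in deficient (SE 0.123, adjusted p = 1.26e-12) and -1.87 in WT cells (SE 0.119, adjusted p = 1.02e-11).

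ZBTB5, reported to repress the cell cycle inhibitor gene CDKN1A, lies on chromosome 9 (37438114 to 37465399, minus strand). It measured 7.43, 7.06 and 7.18 CPM in deficient AA libraries and 25.7, 26.2 and 26.3 CPM in deficient PBS libraries. ZBTB5 in WT cells measured 10.6, 10.3 and 9.21 CPM under AA and 27.0, 25 and 25.2 CPM under PBS. All deficient AA libraries were below all WT AA libraries, which in turn were below all PBS libraries, with log2 changes of -1.85 in deficient (SE 0.0815, adjusted p = 1.01e-14) and -1.36 in WT cells (SE 0.0778, adjusted p = 1.62e-12). ZBTB34 (chromosome 9, 126860665 to 126885878, plus strand) measured 9.11, 7.61 and 8.13 CPM in deficient AA libraries and 26.7, 24.0 and 26.9 CPM in deficient PBS libraries. ZBTB34 in WT cells measured 12.1, 13.8 and 9.67 CPM under AA and 26.9, 25.5 and 26.2 CPM under PBS. It showed the same order of groups, with log2 changes of -1.64 in deficient and -1.15 in WT cells (adjusted p = 4.79e-12 and 1.28e-09).

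ZBTB6 and ZBTB26 are neighbours on the minus strand of chromosome 9, with 2235 bases between them. ZBTB6 (122908056 to 122913330) measured 8.82, 9.03 and 7.18 CPM in deficient AA libraries and 29.3, 30.4 and 27.1 CPM in deficient PBS libraries. ZBTB6 in WT cells measured 8.45, 9.89 and 7.5 CPM under AA and 25.2, 28.4 and 25.1 CPM under PBS. The AA libraries of the genotypes overlapped, all below the PBS libraries, and the log2 changes were -1.79 in deficient and -1.61 in WT cells (adjusted p = 5.15e-13 and 7.04e-12). ZBTB26 (122915566 to 122931500) measured 10.7, 10.5 and 10.6 CPM in deficient AA libraries and 22.5, 24.2 and 22.7 CPM in deficient PBS libraries. ZBTB26 in WT cells measured 8.61, 9.73 and 8.85 CPM under AA and 25.5, 24.5 and 25.2 CPM under PBS. The log2 change of ZBTB26 was -1.12 in deficient and -1.47 in WT cells (adjusted p = 1.65e-11 and 4.73e-13), the deeper fall being in WT cells. ZBTB43 and ZBTB34 lie close to each other as well, on the plus strand with 22454 bases between them. ZBTB43 measured 21.9, 23.8 and 23.1 CPM in deficient AA libraries and 46.3, 46.5 and 45.9 CPM in deficient PBS libraries. ZBTB43 in WT cells measured 23.7, 24.0 and 20.3 CPM under AA and 45.1, 46.7 and 47.5 CPM under PBS. Its log2 change was almost the same in both genotypes, -1.01 in deficient and -1.04 in WT cells (adjusted p = 3.69e-12 and 5.05e-12). With ZBTB5, all 5 tested members on chromosome 9 were lower under AA in both genotypes, while of the 534 tested genes on that chromosome 37.8% were lower in deficient and 36% in WT cells. Those shares are for each genotype alone. Of all 38 members 63.2% were lower in both, with 2 of 2 on chromosome 11, 2 of 2 on chromosome 19 and 5 of 8 on chromosome 1.

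ZBTB18, a repressor known from cortical neuron development, measured 1.25, 1.42 and 1.36 CPM in deficient AA libraries and 4.66, 4.07 and 3.69 CPM in deficient PBS libraries. ZBTB18 in WT cells measured 2.18, 2.33 and 1.45 CPM under AA and 3.40, 4.54 and 4.10 CPM under PBS. Its log2 change was -1.62 in deficient and -1.02 in WT cells (adjusted p = 1.72e-06 and 0.000308). ZBTB9 measured 4.70, 5.15 and 5.09 CPM in deficient AA libraries and 12.3, 12.3 and 13.8 CPM in deficient PBS libraries. ZBTB9 in WT cells measured 6.97, 6.28 and 5.64 CPM under AA and 11.3, 11.1 and 13.5 CPM under PBS. The AA libraries lay below the PBS libraries in each genotype for both genes. ZBTB9 changed by -1.36 in deficient and -0.93 in WT cells (adjusted p = 1.42e-09 and 5.15e-07). ZBTB37 measured 7.38, 8.32 and 9.12 CPM in deficient AA libraries and 21.4, 19.2 and 22.7 CPM in deficient PBS libraries. ZBTB37 in WT cells measured 9.54, 9.39 and 8.74 CPM under AA and 22.1, 23.1 and 22.2 CPM under PBS. Its log2 changes were -1.35 in deficient and -1.29 in WT cells (adjusted p = 1.92e-11 and 5.60e-11). The authors' FPKM values gave another size: 1.10 ± 0.169 FPKM in deficient AA against 1.44 ± 0.166 FPKM in deficient PBS libraries, and the deficient call was lost there (limma adjusted p = 0.0675 to 0.0847). Mean CPM of ZBTB37 in these 2 groups was 8.28 and 21.1. FPKM is a count over length and depth, so the length divided by was not the same in the 2 groups. As a separate limit, ZBTB37 shares 801 bases with GAS5 on the opposite strand, and whether reads were counted by strand is not given.

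**Figure D2:**
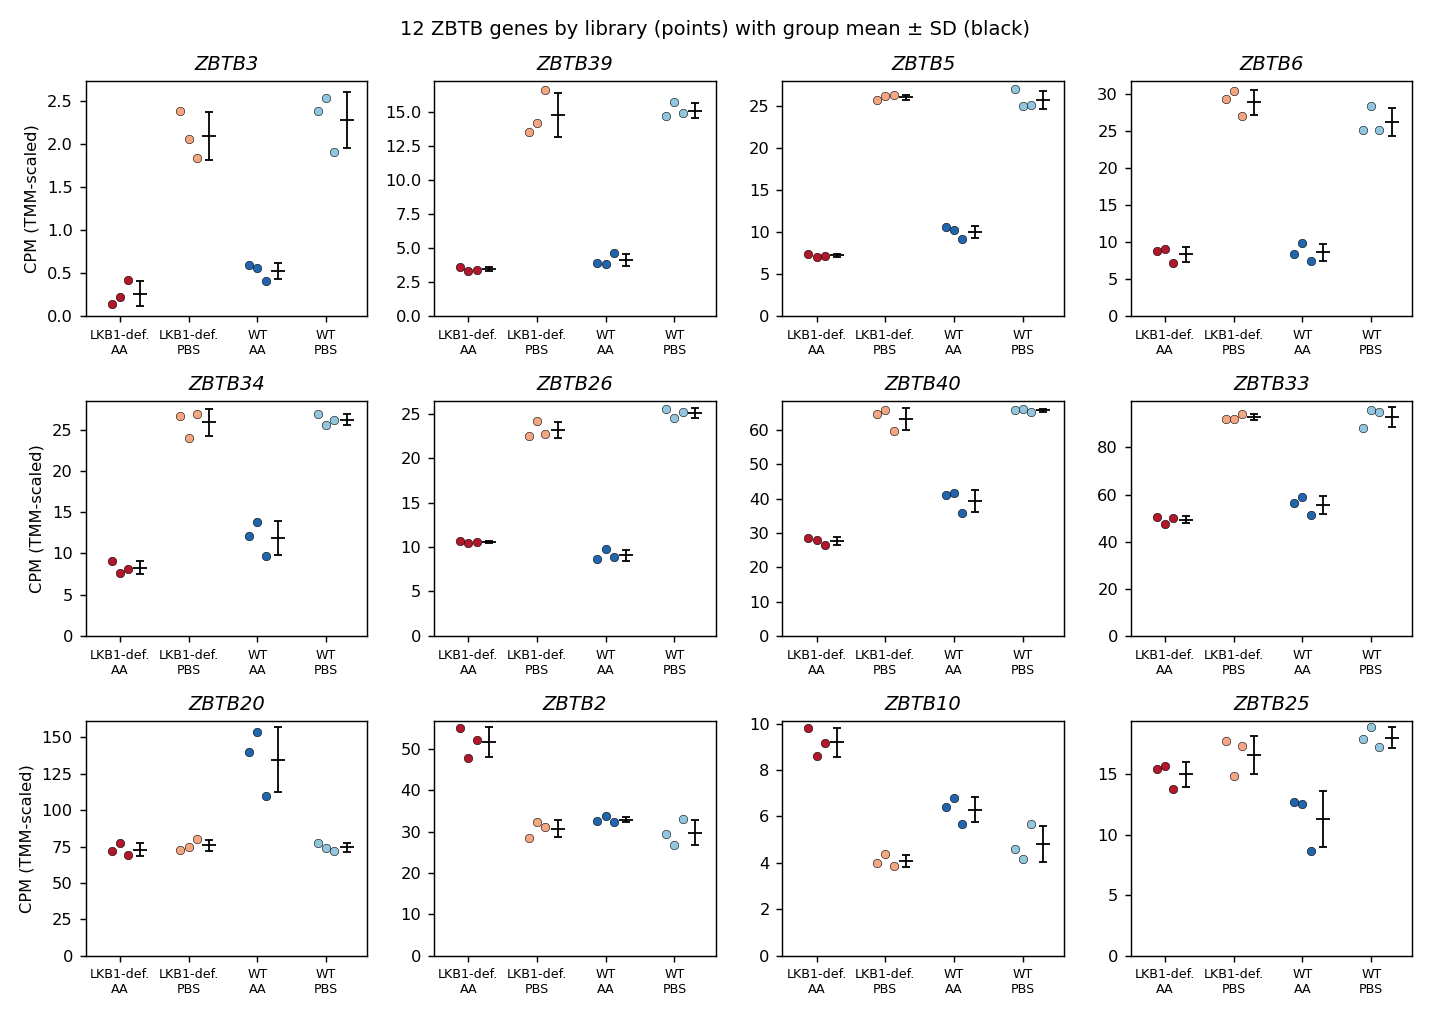
TMM-scaled CPM of 12 ZBTB genes in each library (points, 3 per group) with group mean and SD (black), for LKB1-deficient AA, LKB1-deficient PBS, WT AA and WT PBS. In the upper 8 panels the AA libraries lie below the PBS libraries in both genotypes; ZBTB20 is high in WT AA libraries alone, and ZBTB2 and ZBTB10 are highest in deficient AA libraries.

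Members that bind methylated DNA were among those that fell. ZBTB33 measured 50.3, 47.7 and 50.1 CPM in deficient AA libraries and 92.2, 92 and 94.2 CPM in deficient PBS libraries. ZBTB33 in WT cells measured 56.5, 58.8 and 51.2 CPM under AA and 88.2, 95.9 and 95.1 CPM under PBS, so that AA and PBS libraries did not overlap. Its log2 change was -0.91 in deficient and -0.75 in WT cells (SE 0.0506 and 0.0499; adjusted p = 4.84e-13 and 2e-11). The related methyl-CpG binders fell less: ZBTB4 changed by -0.56 in deficient and -0.44 in WT cells, and ZBTB38 by -0.27 and -0.26 (adjusted p between 2.47e-10 and 4.64e-06). ZBTB24, whose mutation causes an immunodeficiency with loss of centromeric DNA methylation, changed by -0.89 in deficient and -0.82 in WT cells (adjusted p = 2.93e-09 and 1.21e-08). ZBTB40, at a locus associated with bone density, changed by -1.19 in deficient and -0.74 in WT cells. ZBTB7A, which encodes LRF, a repressor of fetal globin and of glycolytic genes, changed by -0.67 in deficient and -0.68 in WT cells (adjusted p = 5.48e-08 and 8.69e-08). Of the remaining members lower in both genotypes, ZBTB47, ZBTB45, ZBTB49, ZBTB44, ZBTB7C, ZBTB41, ZBTB46 and ZBTB8A, the log2 change lay between -1.01 (ZBTB47) and -0.47 (ZBTB8A) in deficient cells and between -0.78 (ZBTB49) and -0.30 (ZBTB46) in WT cells. The WT call of ZBTB46, a transcription factor of classical dendritic cells, was marginal (adjusted p = 0.0499) and was lost without any one of 8 libraries: WT AA replicates 2 and 3, WT PBS replicates 1 and 2, deficient AA replicate 1 or any deficient PBS replicate (adjusted p = 0.0555 to 0.19). That of ZBTB7C was lost without WT AA replicate 2 or 3 or WT PBS replicate 1 or 3 (adjusted p = 0.117 to 0.212). Both were also lost on FPKM (limma adjusted p = 0.0808 to 0.163), and that of ZBTB46 with DESeq2 (adjusted p = 0.0821).

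Few members rose, and only ZBTB10 and ZBTB48 did so in both genotypes. ZBTB10, a repressor of SP transcription factor genes, measured 9.83, 8.60 and 9.17 CPM in deficient AA libraries and 3.98, 4.37 and 3.87 CPM in deficient PBS libraries. ZBTB10 in WT cells measured 6.43, 6.78 and 5.69 CPM under AA and 4.59, 4.16 and 5.67 CPM under PBS. The deficient groups were far apart, with a 2.26-fold rise (log2 1.17, SE 0.143, adjusted p = 1.77e-07), and the WT groups nearly met (log2 0.39, adjusted p = 0.0216). The WT call of ZBTB10 was lost without WT AA replicate 1 or 2 or WT PBS replicate 1 or 2 (adjusted p = 0.052 to 0.115). ZBTB48, which encodes the telomere-binding protein TZAP, changed by 0.44 in deficient and 0.33 in WT cells (adjusted p = 0.00154 and 0.0153), and its WT call was lost without WT PBS replicate 3 (adjusted p = 0.095). On FPKM the WT calls of both were lost, with log2 changes of 0.10 to 0.18 for ZBTB10 (limma adjusted p = 0.408 to 0.435) and 0.15 to 0.18 for ZBTB48 (0.433 to 0.537). ZBTB2, reported to repress CDKN1A, measured 55.1, 47.8 and 52.2 CPM in deficient AA libraries and 28.4, 32.4 and 31.2 CPM in deficient PBS libraries. ZBTB2 in WT cells measured 32.6, 33.7 and 32.4 CPM under AA and 29.5, 26.8 and 33.0 CPM under PBS. The deficient libraries separated and the WT libraries overlapped, with log2 changes of 0.75 in deficient (SE 0.0715, adjusted p = 3.63e-09) and 0.14 in WT cells (adjusted p = 0.0923, and 0.0165 without WT PBS replicate 3). ZBTB12 and ZBTB17 were also called in deficient cells alone, with log2 changes of 0.70 (adjusted p = 0.000604) and 0.26 (adjusted p = 0.00993). ZBTB17 encodes MIZ1, the MYC partner that activates CDKN1A and CDKN2B, and its call was lost without deficient PBS replicate 1 (adjusted p = 0.0504). In WT cells ZBTB12 and ZBTB17 changed by 0.30 and -0.19 (adjusted p = 0.116 and 0.0574). ZBTB12 passed there without WT PBS replicate 2 (adjusted p = 0.0495), and ZBTB17 without WT AA replicate 1, WT PBS replicate 2 or deficient PBS replicate 2 (adjusted p = 0.0175 to 0.0491).

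Of the members called in WT cells and not in deficient cells, ZBTB20 rose most. ZBTB20 (chromosome 3, 114314501 to 115147271, minus strand), a repressor of the fetal liver gene AFP, measured 72.2, 77.8 and 69.0 CPM in deficient AA libraries and 72.6, 74.6 and 80.3 CPM in deficient PBS libraries. ZBTB20 in WT cells measured 140, 154 and 110 CPM under AA and 77.8, 73.8 and 71.8 CPM under PBS. The WT AA libraries stood above the 9 other libraries, which overlapped, and the log2 changes were -0.06 in deficient (adjusted p = 0.561) and 0.85 in WT cells (SE 0.0812, adjusted p = 5.81e-09). ZBTB11 and ZBTB22 had small positive changes in WT cells, 0.11 and 0.35 (adjusted p = 0.0338 and 0.0422). The call of ZBTB11 was lost without WT AA replicate 1 or 2 or WT PBS replicate 1 or 2 (adjusted p = 0.0627 to 0.166), and that of ZBTB22 without WT AA replicate 2 or 3 or WT PBS replicate 2 or 3 (adjusted p = 0.0984 to 0.12). Both calls were also lost on FPKM (limma adjusted p = 0.0844 to 0.398), and that of ZBTB22 with DESeq2 (adjusted p = 0.0758). The count of 5 higher members in WT cells was therefore 2 without WT AA replicate 2 and 3 without WT AA replicate 1, WT PBS replicate 1 or WT PBS replicate 2. It was 8 with upper quartile factors in place of TMM. ZBTB25, ZBTB1 and ZBTB14 were lower in WT cells alone, with log2 changes of -0.68, -0.41 and -0.28 (adjusted p = 2.01e-05, 1.65e-06 and 0.000498). In deficient cells their changes were -0.15, -0.07 and -0.03 (adjusted p = 0.231, 0.242 and 0.676).

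The difference in AA effect between the genotypes was then tested in the same model, as the log2 change in deficient cells minus that in WT cells. It was called for 12 of 38 members, 7 higher and 5 lower, against 44.6% of all genes, 21.6% higher and 23% lower. The share of higher calls, 18.4%, was near the background, and the lower calls, 13.2%, were 4 to 7 members without any one library. The largest was ZBTB20, at -0.91 (SE 0.118, adjusted p = 1.83e-06). ZBTB10 followed at 0.79 (SE 0.204, adjusted p = 0.00334) and ZBTB2 at 0.61 (SE 0.104, adjusted p = 5.49e-05). ZBTB25, reported to repress NFAT target genes, measured 15.4, 15.7 and 13.8 CPM in deficient AA libraries and 17.7, 14.8 and 17.3 CPM in deficient PBS libraries. ZBTB25 in WT cells measured 12.7, 12.5 and 8.64 CPM under AA and 17.9, 18.9 and 17.2 CPM under PBS. The deficient groups overlapped and the WT groups did not, and the difference was 0.53 (adjusted p = 0.00985). ZBTB25 lies across MTHFD1, AKAP5 and ZBTB1 on the opposite strand, so its reads may be mixed with theirs. ZBTB34 and ZBTB5 fell further in deficient cells, each by a difference of -0.49 (adjusted p = 0.00846 and 0.00142). The difference of ZBTB34 was -0.26 to -0.41 on FPKM and was not called there (limma adjusted p = 0.113 to 0.178). The remaining called differences were -0.46 for ZBTB40, -0.43 for ZBTB9, 0.45 for ZBTB17, 0.35 for ZBTB26, 0.33 for ZBTB1 and 0.25 for ZBTB14. That of ZBTB9 (adjusted p = 0.0453) was lost without any one of 8 libraries: WT AA replicates 1 and 2, WT PBS replicates 1 and 2, deficient AA replicates 1, 2 and 3 or deficient PBS replicate 3 (adjusted p = 0.054 to 0.125). It was also lost with DESeq2 (0.0811), library size only (0.0794), no count filter (0.0703), a replicate block (0.0539) and on FPKM (limma, 0.153 to 0.238). That of ZBTB14 (adjusted p = 0.0257) was lost without any one of 6: WT AA replicates 2 and 3, WT PBS replicate 3, deficient AA replicate 2 or deficient PBS replicates 1 and 2 (adjusted p = 0.0513 to 0.0708) and on FPKM (limma, 0.0725 to 0.119). The difference of ZBTB26 was lost in 2 of 3 FPKM settings (limma adjusted p = 0.0507 and 0.053). Among the 24 members lower in both genotypes, 19 had the more negative estimate in deficient cells, and so had 2233 of the 3440 tested genes lower in both.

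The genotypes were also compared directly. Under PBS no member was called between deficient and WT cells, against 0.275% of all genes, and DESeq2 and limma on FPKM called none either. An unadjusted p under 0.05 was reached by a single member, ZBTB38, against 8.45% of all genes. Its log2 difference was -0.12 (edgeR adjusted p = 0.321). The 38 estimates lay between -0.25 and 0.15, with a median SE of 0.0866. Under AA 17 members were called, 7 higher and 10 lower in deficient cells, against 59% of all genes, 28.7% higher and 30.3% lower. With library size as the only scaling, 8 were higher and 5 lower. ZBTB20 had the largest called difference, -0.88 (adjusted p = 4.31e-09), then ZBTB2 at 0.65 (adjusted p = 5.11e-08) and ZBTB10 at 0.55 (adjusted p = 0.00124). ZBTB40 measured 28.5, 28.0 and 26.4 CPM in deficient AA libraries and 41.0, 41.5 and 35.7 CPM in WT AA libraries. Its PBS libraries held 64.5, 65.7 and 59.7 CPM in deficient and 65.8, 66.2 and 65.2 CPM in WT cells. The genotypes were apart only under AA, by -0.51 (SE 0.0627, adjusted p = 4.13e-07), and ZBTB34 differed by the same -0.51 (adjusted p = 0.000554).

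Of the remaining called members, ZBTB5, ZBTB45, ZBTB9, ZBTB47, ZBTB33, ZBTB44 and ZBTB38 were lower in deficient cells under AA, by log2 differences from -0.47 to -0.12. ZBTB25, ZBTB17, ZBTB1, ZBTB14 and ZBTB26 were higher, by 0.23 to 0.42. The call was lost for ZBTB33 without WT AA replicate 2 (adjusted p = 0.0695), for ZBTB38 without WT AA replicate 1 or deficient AA replicate 3 (0.0686 to 0.0976), and for ZBTB26 without WT AA replicate 1 or 3 or deficient AA replicate 1 or 3 (0.0522 to 0.0921). It was lost for ZBTB45 without WT AA replicate 3 or deficient AA replicate 1 or 2 (0.0531 to 0.111), for ZBTB47 without WT AA replicate 2 or deficient AA replicate 1 or 3 (0.0541 to 0.0761), and for ZBTB9 without WT AA replicate 1 or 2 or deficient AA replicate 1 (0.0572 to 0.135). ZBTB44 lost it without WT AA replicate 1 or 2, WT PBS replicate 1 or 2, deficient AA replicate 3 or deficient PBS replicate 1 (0.0503 to 0.245). On FPKM the calls of ZBTB9, ZBTB14, ZBTB26, ZBTB33, ZBTB44, ZBTB45 and ZBTB47 were lost (limma adjusted p = 0.0626 to 0.785). The count of lower members, 10, was 6 without WT AA replicate 2. ZBTB3 and ZBTB18 had large estimates, -0.99 and -0.56, that were not called (adjusted p = 0.0724 and 0.0582). ZBTB3 passed without deficient AA replicate 3 (-1.50, adjusted p = 0.025) and ZBTB18 without WT AA replicate 3 (-0.75, adjusted p = 0.0164).

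**Figure D3:**
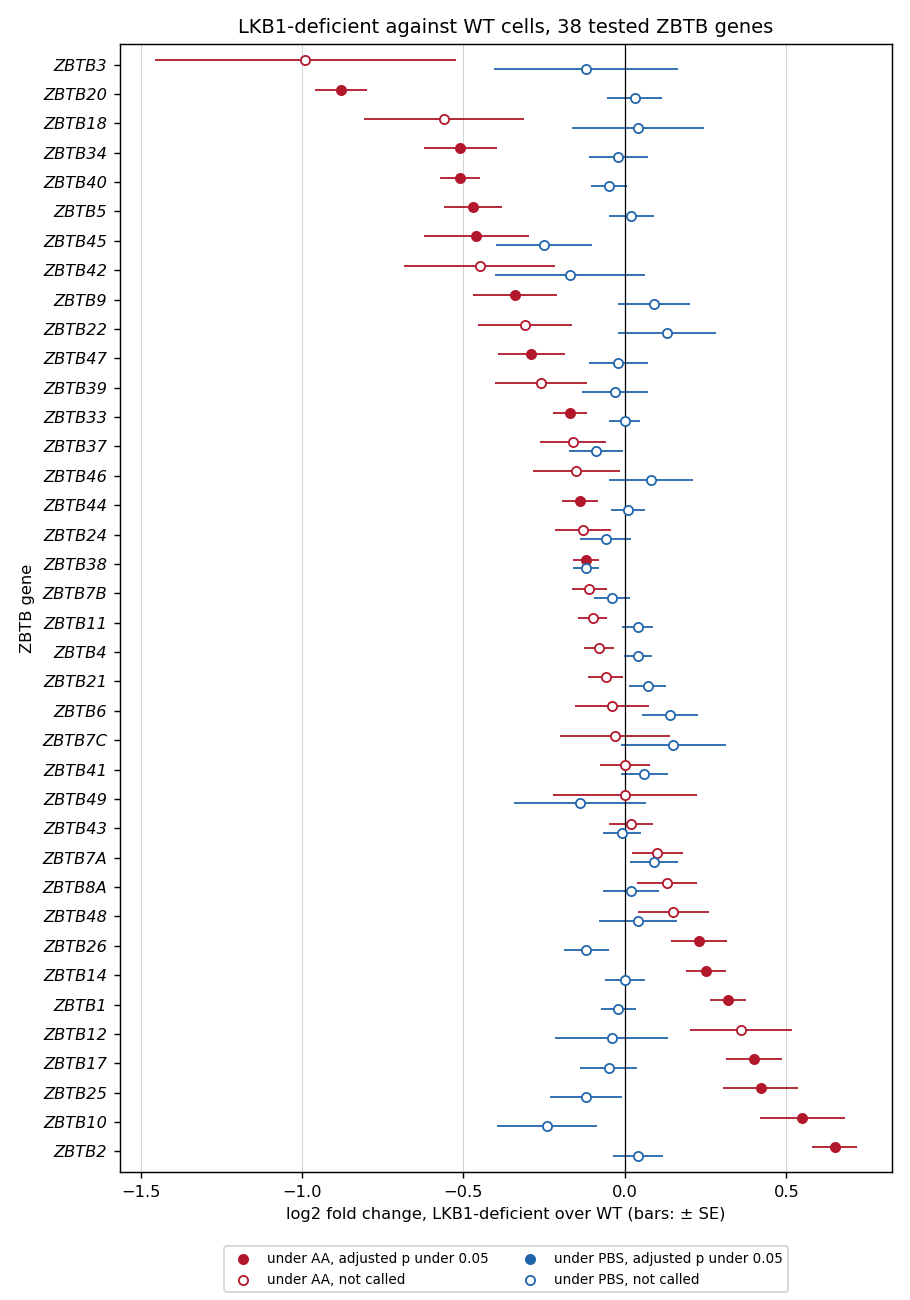
Log2 fold change of LKB1-deficient over WT cells with its standard error for the 38 tested ZBTB genes, under AA (red) and under PBS (blue), ordered by the value under AA; filled points are called at an edgeR adjusted p under 0.05. All points under PBS are open and lie between -0.25 and 0.15, and those under AA spread from -0.99 to 0.65 with 17 filled.

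Gene structure was described next. In the GENCODE annotation 14 tested members have their whole coding sequence in 1 exon. ZBTB39, ZBTB5, ZBTB6, ZBTB34, ZBTB26, ZBTB9, ZBTB43, ZBTB33 and ZBTB38 of these were lower in deficient cells, ZBTB12 was higher, and ZBTB1, ZBTB21, ZBTB22 and ZBTB42 were not called there. ZBTB3, with the deepest fall, has 2 coding exons. Their median log2 change was -0.96 in deficient and -0.84 in WT cells, and 9 were lower in deficient and 10 in WT cells. The 24 members with 2 or more coding exons had medians of -0.57 and -0.48, with 15 and 17 lower. The other 662 tested genes with 1 coding exon had medians of -0.35 in deficient and -0.30 in WT cells, with 50% and 50.6% lower. The 11954 others with 2 or more had medians of 0.03 and 0.02, with 36.7% and 34.3% lower. The split was chosen after the values were seen and has no test.

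**Figure D4:**
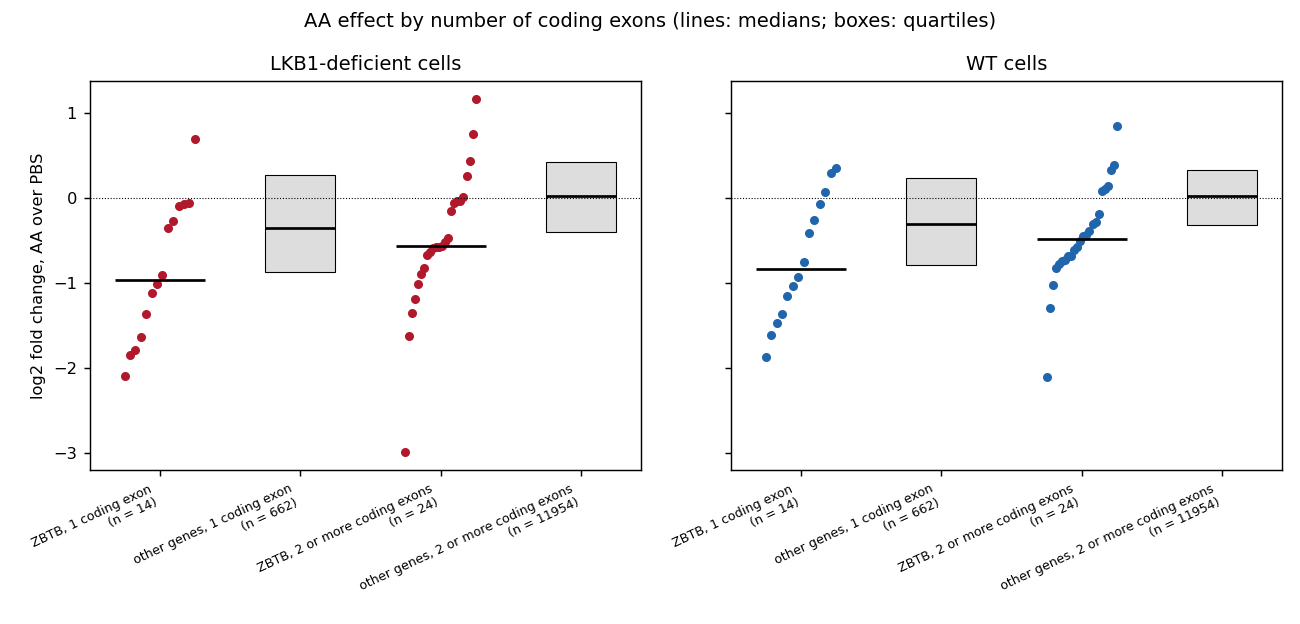
Log2 fold change of AA over PBS by number of coding exons, in LKB1-deficient (left) and WT cells (right); points are ZBTB genes, lines are medians and grey boxes span the quartiles of the other tested genes. The ZBTB medians lie below those of the other genes in both classes, at -0.96 and -0.57 in deficient cells.

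Transcript length moved with the AA effect over all genes: longer transcripts were lower, with a Spearman rho of -0.345 in deficient and -0.325 in WT cells over 12654 genes. Among the 38 members rho was -0.182 and -0.226. A trend of log2 change on length was then removed. The length here was not the annotated one but that given by the authors' counts over FPKM (median over libraries). After this step the members' median was -0.27 in deficient and -0.34 in WT cells, against 0.00 over all genes. ZBTB3, ZBTB39, ZBTB5 and ZBTB6 then had values of -2.91, -1.69, -1.57 and -1.57 in deficient cells. ZBTB20 had 0.94 in deficient and 1.65 in WT cells, against -0.06 and 0.85 before. Its length from counts over FPKM was 26593 bases, against 2757 bases for its annotated transcript, so its values after this step rest on that length. The number of C2H2 zinc finger patterns (C, 2 to 4 residues, C, 12 residues, H, 3 to 5 residues, H), counted in the translated coding sequences, ran from 1 to 14 and gave a rho of 0.177 in deficient and 0.167 in WT cells over 38 members.

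Promoter sequences are shown for members that moved in opposite directions, to let the letters be compared. RefSeq windows of 300 bases (250 before and 50 after a gene start, build GRCh38.p14) matched 33 of the 38 tested members. ZBTB6, ZBTB10, ZBTB17, ZBTB40 and ZBTB41 are named only. The GC box (GGGCGG, the core of SP factor sites, either strand) was found in 24 of 33 windows, 72.7%, against 70.5% of tested genes and 44.6% of all 27305 windows. Windows of ZBTB39, ZBTB5 and ZBTB34, which fell under AA in both genotypes, and of ZBTB2, which rose in deficient cells, are printed 5′ to 3′ on the gene's strand, with each GC box in capitals (CCGCCC is the same box on the other strand).
ZBTB39, chr12:57006497-57006796, minus strand: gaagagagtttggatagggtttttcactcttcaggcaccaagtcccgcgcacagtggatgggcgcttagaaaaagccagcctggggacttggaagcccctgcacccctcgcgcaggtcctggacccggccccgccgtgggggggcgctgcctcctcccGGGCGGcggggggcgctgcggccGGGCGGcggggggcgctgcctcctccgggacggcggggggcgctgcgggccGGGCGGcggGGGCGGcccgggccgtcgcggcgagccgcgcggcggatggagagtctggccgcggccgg
ZBTB5, chr9:37465401-37465700, minus strand: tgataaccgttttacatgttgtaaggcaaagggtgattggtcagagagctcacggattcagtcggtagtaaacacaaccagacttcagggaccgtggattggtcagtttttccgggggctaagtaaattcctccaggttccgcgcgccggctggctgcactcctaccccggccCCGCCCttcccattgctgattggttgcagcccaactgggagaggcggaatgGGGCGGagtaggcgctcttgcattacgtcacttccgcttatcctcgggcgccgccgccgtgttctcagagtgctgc
ZBTB34, chr9:126860389-126860688, plus strand: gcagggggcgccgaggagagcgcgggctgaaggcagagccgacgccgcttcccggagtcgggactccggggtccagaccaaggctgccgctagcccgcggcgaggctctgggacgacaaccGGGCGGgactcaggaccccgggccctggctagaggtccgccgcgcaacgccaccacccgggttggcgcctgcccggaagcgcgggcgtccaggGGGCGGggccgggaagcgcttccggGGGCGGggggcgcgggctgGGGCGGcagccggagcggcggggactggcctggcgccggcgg
ZBTB2, chr6:151391510-151391809, minus strand: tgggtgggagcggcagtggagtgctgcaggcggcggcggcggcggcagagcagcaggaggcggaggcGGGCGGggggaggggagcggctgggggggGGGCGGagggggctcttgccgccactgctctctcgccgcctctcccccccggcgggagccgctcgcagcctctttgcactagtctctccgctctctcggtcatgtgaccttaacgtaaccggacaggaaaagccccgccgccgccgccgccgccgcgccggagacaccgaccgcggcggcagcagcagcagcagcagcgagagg
The windows hold 4, 2, 4 and 2 GC boxes in this order, so the box was found in members of either direction. Median GC content was 64.7% over the 33 windows and 65.3% over those of tested genes.

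Other motifs were searched on both strands in the same windows. The E-box CACGTG was in 6 windows, 18.2% against 10.2% of tested genes. The cyclic AMP response element TGACGTCA was in 3, 9.09% against 3.26%: ZBTB48, ZBTB11 and ZBTB21, the last 2 with changes in deficient cells of -0.03 and -0.06. The Kaiso motif TCCTGCNA was in 2, 6.06% against 3.75%, and the heat shock motif GAANNTTC also in 2, against 4.57%. The NRF1 motif GCATGCGC and the AP-1 motif TGANTCA were in 1 each, against 5.54% and 4.59%, and the ATF4 motif TGATGNAA in none, against 1.69%. The AP-1 motif was that of ZBTB20, whose window (chr3:114900576-114900875) lies inside the annotated gene and not at its outermost start, 115147271. A match describes the letters of a window and is no sign that a factor binds there.

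Genes related to the family were read from lists drawn up beside it. ZNF genes are the wider zinc finger family. Of 392 tested, 255 were lower and 54 higher in deficient cells and 250 were lower and 34 higher in WT cells, with medians of -0.62 and -0.58. The share lower was 65.1% in deficient and 63.8% in WT cells. It was 63.2% and 71.1% for ZBTB members and 37.4% and 35.2% for all tested genes. The fall was thus not particular to the ZBTB family. Over all tested genes 37% were higher in deficient and 34.5% in WT cells. KLF genes are another zinc finger family: of 13 tested, 7 were higher and 3 lower in deficient cells and 5 and 5 in WT cells, with medians of 0.31 and 0.13. Among 8 BTB zinc finger genes with other symbols, 5 were lower and 2 higher in deficient cells and 4 and 1 in WT cells. The higher one in both was BCL6, the germinal centre repressor, which averaged 22.7 ± 3.02 CPM in deficient AA, 8.77 ± 0.494 CPM in deficient PBS, 34.3 ± 1.78 CPM in WT AA and 8.29 ± 1.55 CPM in WT PBS libraries (SD, n = 3 each). BCL6 changed by 1.37 in deficient and 2.04 in WT cells (adjusted p = 3.5e-10 and 4.7e-13). Of the other BTB nuclear factors, 3 were tested: NACC1 and NACC2 were lower in both genotypes, and BACH1, a repressor of heme oxygenase, in WT cells.

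Corepressor genes were called in both directions. Of 18 tested genes for corepressors and deacetylases that BTB zinc finger factors recruit, 10 were lower and 6 higher in deficient cells and 8 and 8 in WT cells, with medians of -0.10 and 0.04. The share lower was 55.6% in deficient and 44.4% in WT cells, against 37.4% and 35.2% of all tested genes. The 6 and 8 higher stood against 37% and 34.5% of all tested genes. In WT cells as many of the 18 were higher as lower. Whether the list differed from the family was not tested. BCOR, a corepressor of BCL6, changed by 0.69 in deficient and 0.18 in WT cells (adjusted p = 1.72e-12 and 0.000708). Of 7 CUL3 ligase genes, 3 were lower and 3 higher in deficient cells and 1 and 5 in WT cells. The share lower was 42.9% and 14.3%, against the same 37.4% and 35.2% of all tested genes. CUL3 itself changed by -0.68 in deficient (adjusted p = 3.48e-12) and 0.06 in WT cells (adjusted p = 0.17). Of 25 tested genes reported as targets of single ZBTB factors, 11 were higher and 9 lower in deficient cells and 14 and 7 in WT cells, with medians of 0.07 and 0.14. The 11 and 14 higher stood against 37% and 34.5% of all tested genes. The share lower, 36% and 28%, stood against 37.4% and 35.2%. SLC2A3, a glucose transporter gene that ZBTB7A represses, changed by 2.92 in deficient and 3.74 in WT cells. Of the other glycolytic targets of ZBTB7A on the list, PFKP changed by 0.07 in deficient and 0.14 in WT cells. PKM changed by -0.14 in deficient (adjusted p = 1.22e-05) and 0.38 in WT cells (adjusted p = 5.58e-12). CDKN1A, reported to be repressed by ZBTB2 and ZBTB5 and activated by ZBTB17, changed by 2.13 in deficient and 2.15 in WT cells. CDCA7, which ZBTB24 activates, changed by -0.05 (adjusted p = 0.349) in deficient and -0.26 in WT cells. SP1, SP3 and SP4 are reported as repressed by ZBTB10. SP1 changed by -0.37 in deficient and -0.34 in WT cells and SP3 by -0.12 and -0.58, while SP4 was not called in either genotype. Whether any of these genes moved with its ZBTB factor was not tested.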

How the data were processed

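RNA of 12 libraries in 4 groups of 3 was sequenced after oligo(dT) selection, per the labels' protocols. The submitters' processing notes name RSEM, StringTie 1.3.1, HISAT2 2.1.0, Bowtie2 2.2.8 and fastp 0.18.0, without saying what each did. Genome build and counting strand: not given in the sources used here. Estimated counts and FPKM values were deposited by the authors, the FPKM values being divided by transcript length and depth. Groups come from the genotype and treatment labels. The members and gene lists were chosen with earlier results of these data known.

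Estimated counts were rounded to whole numbers, and low genes were removed with filterByExpr (minimum count 10). All 12 libraries entered a single quasi-likelihood fit of group in edgeR 4.0.16 under R 4.3.3, with TMM factors of 0.987 to 1.033. The contrasts were AA over PBS within deficient and within WT cells, the difference of these effects, and deficient over WT under AA and under PBS. Calls needed an adjusted p (Benjamini-Hochberg, over all 12718 tested genes) under 0.05. The SE is the absolute log2 change over the square root of F. The steps were tested on simulated counts with 200 genes changed in the deficient AA group alone. Between genotypes under AA 181 genes were called, 18 of them falsely, and for the difference in AA effect 148, 7 of them falsely. For AA in deficient cells 171 genes were called, 11 of them falsely. Recovery ran from 50% at a log2 change of 0.25 to 98% at 2. In the data 74.4% of genes were called there, so the simulation does not check the scaling at that extent. Libraries of a group differed by more than sampling noise (chi-square per degree of freedom 1.99 to 4.29), so none was taken for a copy.

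Genes given by library are STK11 as the check of the labels and, among members, the 8 largest called changes in each AA comparison, the 6 largest differences and the 5 largest genotype differences; ZBTB33 was added after its values were seen. Gene positions, coding exons and zinc finger patterns came from GENCODE release 29 on GRCh38, with the patterns counted in its translated coding sequences, since no protein table was used here. Promoter windows came from RefSeq. The alternatives were other scaling factors (RLE, upper quartile, library size only), other filters, a replicate block, the libraries of a comparison alone, DESeq2 1.42.0, limma 3.58.1 on log2(FPKM + 1) or log2(FPKM + 0.1) with or without a minimum of 1 FPKM in 3 libraries, a threshold of 0.01, removal of the length trend (lowess) and leaving out each library.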

Additional observations from a re-analysis of the deposited data

Results flagged for a closer look

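For 12 members the AA effect differed between LKB1-deficient and WT cells by the edgeR test of the difference itself (adjusted p under 0.05, log2 change in deficient minus that in WT cells). More negative in deficient cells were ZBTB20 (-0.91), ZBTB34 (-0.49), ZBTB5 (-0.49), ZBTB40 (-0.46) and ZBTB9 (-0.43). More positive were ZBTB10 (0.79), ZBTB2 (0.61), ZBTB25 (0.53), ZBTB17 (0.45), ZBTB26 (0.35), ZBTB1 (0.33) and ZBTB14 (0.25). ZBTB20 stands out because its level in deficient AA, deficient PBS and WT PBS libraries overlapped and only WT AA libraries were higher. For ZBTB34, ZBTB5, ZBTB40 and ZBTB9 both genotypes fell and the deficient cells fell further, and for ZBTB26 the WT cells fell further. Such differences were called in 44.6% of all tested genes.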

How the results depend on the processing

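In deficient cells 29 members were called under AA, and 28 to 29 without any one library. In WT cells the 32 called members were 27 to 32 without one library, 2 to 5 of them higher and 25 to 28 lower. The 5 higher in WT cells were 8 with upper quartile factors, 3 without a count filter and 1 on FPKM (limma, each of 3 settings) or at an adjusted p under 0.01. For the difference, 12 called members were 10 to 13 without one library, 6 to 7 higher and 4 to 7 lower, and the 5 lower were 3 on FPKM. Under AA the 17 members called between genotypes were 13 to 19 without one library (6 to 8 higher, 6 to 11 lower), 10 to 11 on FPKM and 11 at 0.01. The 10 lower were 5 with library size only, on FPKM and at 0.01. Under PBS the count was 0 without any one library. The difference of ZBTB37, -0.07 on counts, was 0.72, 0.46 and 0.46 on FPKM (adjusted p = 0.041, 0.0246 and 0.0236). Why the length divided by differed between groups for ZBTB37, and the cause of the other changes, was not tested.

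Replicate numbers did not pair the libraries: 0 of 18 same-numbered pairs had deviations correlated above 0.1, and 1 of 12 libraries correlated best with its own number. With a replicate block, 29 members were called in deficient cells, 30 in WT cells, 11 for the difference, 0 between genotypes under PBS and 16 under AA. Of 4501 member values under alternatives, 4302 kept direction and side of the threshold. Depth limits ZBTB3, with 3 to 47 counts.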
